A study of Mus musculus with 19 samples.

Results

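Integrins are transmembrane receptors made of an α and a β subunit that tie the extracellular matrix (ECM) to the actin cytoskeleton. The β subunit Itgb1 pairs with many α subunits, and the pair decides the ligand: Itga1 gives a receptor for collagen and laminin, Itga3 and Itga6 receptors for laminin, Itga5 the classical fibronectin receptor, Itga8 a receptor for nephronectin and other proteins with an RGD motif, and Itga9 a receptor for tenascin-C and osteopontin. Itgav pairs with Itgb1, Itgb3, Itgb5 and other β subunits, and several of these pairs bind vitronectin and release transforming growth factor β from its latent complex. In hepatic stellate cells (HSCs), the vitamin A storing pericytes of the liver sinusoid, integrins carry adhesion to the matrix and take part in fibrogenic activation.

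Here 10 integrin subunit genes were followed, 7 α subunits (Itga1, Itga3, Itga5, Itga6, Itga8, Itga9 and Itgav) and 3 β subunits (Itgb1, Itgb3 and Itgb5). They were chosen as a gene list, with earlier results of these data known. They were matched by symbol to the Ensembl identifiers of the deposited table, and all 10 of 10 were found among its 55487 genes. All 10 were among the 15138 genes that passed the default edgeR filter on low counts. The cells were HSCs of untreated Balb/c mice (healthy males, 23 to 24 weeks of age), sorted by their ultraviolet positivity onto plates coated with collagen and kept in DMEM with 10% fetal bovine serum, penicillin-streptomycin and glutamine. RNASeq was available for 19 samples: 0 h (fresh cells that never touched a plate, n = 2), 3, 6, 12, 18 and 96 h (n = 3 each) and 24 h (n = 2). No treatment other than culture is labelled in any group. Medium was renewed at 3 and 24 h, every sample merged 2 technical repeats, and the labels number the samples M1 to M3, M1 and M3 under one isolation date and M2 under another. M1 has no 0 h sample and M3 has no 24 h sample.

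Libraries were made with a 3′ end kit, so that a transcript gives reads near its 3′ end whatever its length. Totals per sample lay between 2073171 and 7690892 counts (median 4954915), and 3 counts correspond to between 0.386 and 1.51 CPM (counts scaled to each library's size with TMM factors, the unit of all levels below). Levels under that floor were not measurable, and as the reads carry no molecular identifiers the floor covers counting error only. Of the HSC markers, 12 of 12 were detected at 0 h with a summed level of 31869 to 36892 CPM, and this sum was between 2125 and 3279 CPM at 18 to 96 h. The 0 h samples also held 3730 and 7842 CPM of summed hepatocyte markers (7 of 7 above 0), against 4.04 to 187 CPM from 12 h on, and 302 and 242 CPM of Kupffer cell and leukocyte markers (4 and 5 of 10 at 0). Cholangiocyte markers summed to at most 6.06 CPM in any library, and smooth muscle, portal fibroblast and mesothelial markers to 87.3 and 90.4 CPM in fresh cells. The part of these marker changes in the integrin values was not tested. In bulk samples, fewer cells of one type and less RNA per cell cannot be told apart.

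The α subunit genes with the highest levels in fresh HSCs, Itga1, Itga9 and Itga8, fell in culture, while the shared β subunit Itgb1 was not called in either direction. A gene was called when its adjusted p (Benjamini-Hochberg over all genes tested) was below 0.1 and its fold above 2. Over all timepoints 5 of 10 members were called (Itga1, Itga8, Itga9, Itgb3 and Itgb5), against 26.8% of all genes tested. As the list was chosen with earlier results of these data known, comparisons with all genes are descriptions only. Against 0 h, every call was downward. No member was called higher in any of these 6 comparisons, in which, ordered by time, 4.19%, 6.98%, 8.6%, 7.64%, 5.65% and 5.83% of all genes were. At 3 h no member was called lower either (1.39% of all genes). At 6 h it was 1 of 10 (4.35% of all genes), Itgb5. At 12 h 4 members were called lower, against 9.1% of all genes, and at 18 h 5 members, against 8.21%. At 24 h 4 members were called lower, against 3.86% of all genes, and at 96 h 2 members (Itga1 and Itga9), against 5.03%. At 3 h, 2 members had an unadjusted p below 0.05 (Itgav and Itgb1), as had 2301 of the 15138 genes tested, and DESeq2 called 0 members. Ordered by time, the median log2 fold change of the 10 members was -0.03, -0.27, -0.56, -1.64, -1.13 and -0.19. The median of all genes was 0 up to 24 h and 0.07 at 96 h. The medians of the members include Itga3 and Itga6, which lay near the floor.

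**Figure D1:**
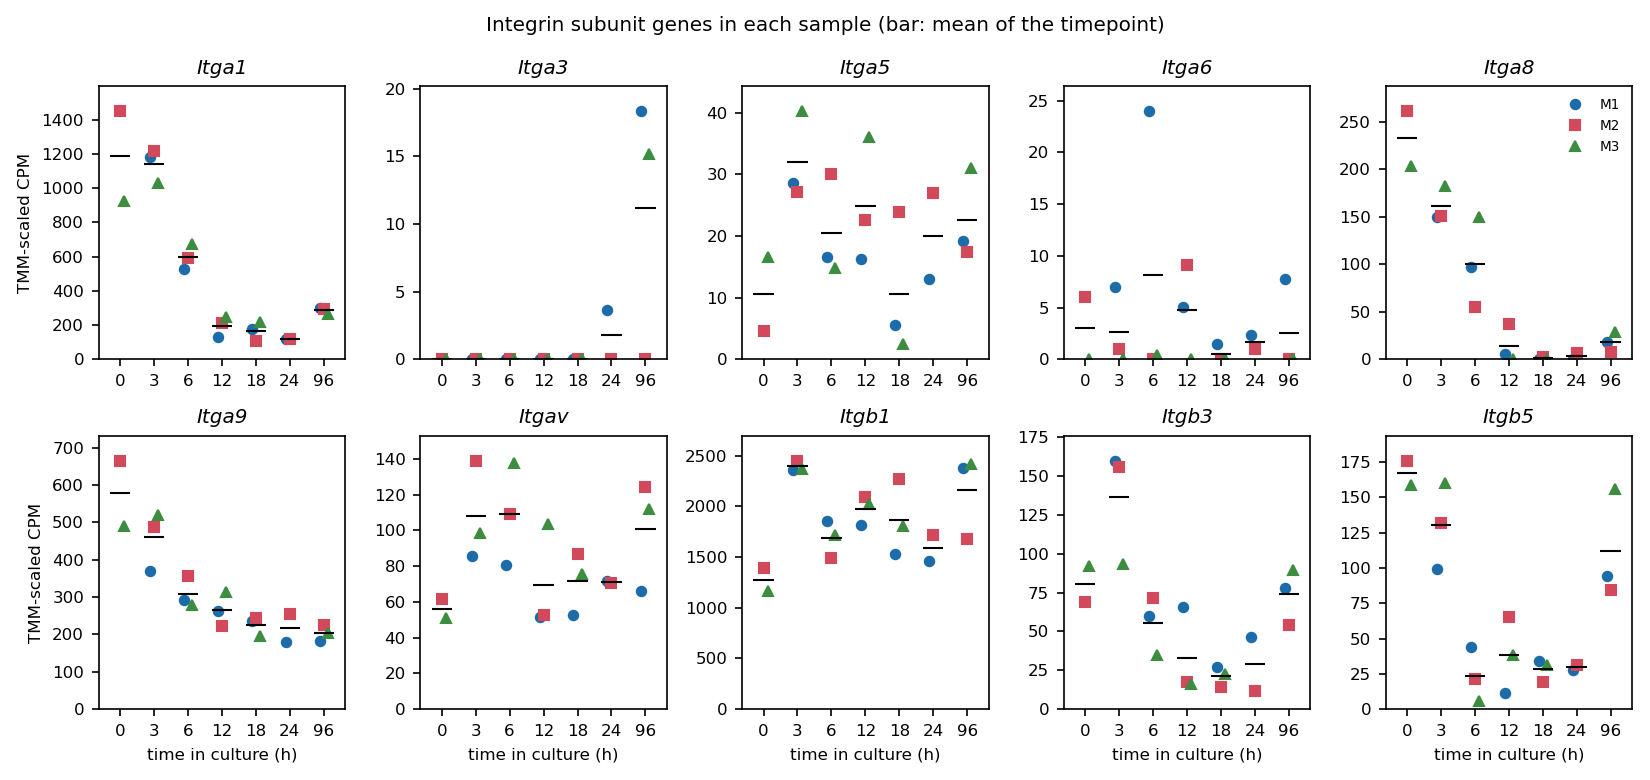
Level of each integrin subunit gene in TMM-scaled CPM (vertical axis, its own range in every panel, starting at 0) against hours in culture (horizontal axis, 7 timepoints evenly spaced and not to scale). Each symbol is 1 sample, with shape and colour giving the M number of the labels, and the black bar is the mean of the timepoint. Itga1, Itga8 and Itga9 step down between 3 and 12 h, Itgb5 is low from 6 to 24 h and Itgb1 stays above its 0 h samples.

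Sequence at the start of 5 genes is shown for reference, for 3 that were called lower (Itga1, Itga8 and Itgb5) and 2 that were not called (Itgav and Itgb1). The windows are RefSeq's on GRCm38.p6, from 250 bases before to 50 after the start, and 8 of 10 members had one. Letters in capitals match one of the motifs searched on both strands: AP-1 (TGANTCA, found in 7.81% of 32851 windows), TEAD (GGAATG, 14.7%), the GC box (GGGCGG, 35.7%), the TATA box (TATAAA, 13.6%) and the CArG box (1.63%).
Itga1, chr13:115101915-115102214, minus strand: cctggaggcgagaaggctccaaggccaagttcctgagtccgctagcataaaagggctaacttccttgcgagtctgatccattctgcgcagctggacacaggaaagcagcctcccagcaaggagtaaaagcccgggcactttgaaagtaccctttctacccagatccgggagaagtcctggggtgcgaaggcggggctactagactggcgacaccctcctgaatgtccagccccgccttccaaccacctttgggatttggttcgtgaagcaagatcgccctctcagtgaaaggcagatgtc
Itga8, chr2:12301895-12302194, minus strand: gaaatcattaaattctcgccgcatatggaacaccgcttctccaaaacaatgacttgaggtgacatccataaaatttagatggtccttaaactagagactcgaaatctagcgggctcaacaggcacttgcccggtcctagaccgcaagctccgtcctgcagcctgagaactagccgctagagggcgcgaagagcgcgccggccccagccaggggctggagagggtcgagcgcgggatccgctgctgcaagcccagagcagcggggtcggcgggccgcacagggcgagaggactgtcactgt
Itgb5, chr16:33829415-33829714, plus strand: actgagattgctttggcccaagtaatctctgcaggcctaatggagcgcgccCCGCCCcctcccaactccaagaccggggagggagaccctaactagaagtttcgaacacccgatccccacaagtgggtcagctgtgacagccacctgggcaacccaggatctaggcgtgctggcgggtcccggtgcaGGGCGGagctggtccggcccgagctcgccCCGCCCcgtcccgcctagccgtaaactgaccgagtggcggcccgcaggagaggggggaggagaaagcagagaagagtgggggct
Itgav, chr2:83724147-83724446, plus strand: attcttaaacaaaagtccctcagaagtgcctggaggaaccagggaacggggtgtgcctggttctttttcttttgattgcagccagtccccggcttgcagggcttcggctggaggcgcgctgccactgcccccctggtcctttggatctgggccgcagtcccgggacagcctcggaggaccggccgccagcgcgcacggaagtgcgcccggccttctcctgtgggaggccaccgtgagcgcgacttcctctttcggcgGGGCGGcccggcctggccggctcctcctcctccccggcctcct
Itgb1, chr8:128685404-128685703, plus strand: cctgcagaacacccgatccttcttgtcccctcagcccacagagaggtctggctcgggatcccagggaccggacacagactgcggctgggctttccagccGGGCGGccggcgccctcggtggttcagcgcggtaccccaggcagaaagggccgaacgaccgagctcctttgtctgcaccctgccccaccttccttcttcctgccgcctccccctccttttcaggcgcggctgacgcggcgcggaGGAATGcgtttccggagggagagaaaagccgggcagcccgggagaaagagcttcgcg
None of the 5 motifs was found in the Itga1 and Itga8 windows. The Itgb5 window held 3 GC boxes, the Itgav window 1, and the Itgb1 window 1 GC box and 1 TEAD match. Among the other members, the Itga5 window held 2 GC boxes, and the 2 windows of Itga3 held 3 and 1. GC boxes thus occurred in members called lower and in members not called. The Itga3 window with 1 GC box and the Itga9 window each held 1 AP-1 match. The GC content was 56.7% for Itga1, 59% for Itga8, 65.7% for Itgb5 and 67.3% for Itgav and Itgb1, against a median of 52.7% over all windows. The RefSeq window of Itga9 lies inside the gene as GENCODE M21 draws it (chromosome 9, 118606690 to 118901003) and is therefore not shown. The Itga3 window with the AP-1 match (95069149 to 95069448) also lies inside its gene (chromosome 11, 95044474 to 95076801).

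Itga1, the collagen and laminin receptor α subunit (chromosome 13, 114953096 to 115101964), fell under every alternative setting run from 12 h on. Its level was 1451 and 925 CPM in the 2 fresh samples and 1180.0, 1219 and 1032 CPM at 3 h. At 6 h the 3 samples held 526, 591 and 672 CPM, at 12 h 128, 209 and 249 CPM, and at 24 h 119 and 118 CPM. The 3 h samples overlapped the fresh ones, whereas every sample from 6 h on lay below both. The log2 fold change against 0 h was -0.06 ± 0.29 (SE) at 3 h and -0.995 ± 0.29 at 6 h (adjusted p = 0.0371), just short of the 2-fold limit. Itga1 then fell, with log2 fold changes of -2.60 ± 0.29 after 12 h (adjusted p = 1.26e-05), -2.84 ± 0.29 after 18 h (5.75e-06) and -3.33 ± 0.35 after 24 h (1.21e-05). At 96 h the samples held 301, 291 and 266 CPM, above each of the 24 h samples but still called lower than fresh cells (log2 fold change -2.06 ± 0.29, adjusted p = 1.72e-04). Within M2 and within M3, the difference of log2(CPM + 1) between 12 h and 0 h was -2.79 and -1.89. At 6 h Itga1 was also called lower with DESeq2 (-1.23) and in 10 of the 19 fits that left out 1 sample.

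Itga8, a receptor subunit of mesenchymal cells (chromosome 2, 12106632 to 12301922), went almost to the detection floor. Fresh cells held 262 and 203 CPM, and 3 h cells 150.3, 151 and 183 CPM. At 6 h the samples held 97.6, 54.7 and 149 CPM. By 12 h they were spread over 5.56, 37.3 and 0 CPM, and at 18 h they held 0, 1.93 and 0.745 CPM (0, 11 and 4 counts). Samples from 3 h on all lay below the fresh ones. The 24 h samples held 0 and 7.07 CPM, and the 96 h samples were at 18.4, 7.51 and 28.3 CPM. Itga8 fell, with log2 fold changes of -4.02 ± 1.41 after 12 h (adjusted p = 0.0723), -7.92 ± 1.71 after 18 h (0.00507) and -5.98 ± 1.84 after 24 h (0.0608). At 96 h the value was -3.68 ± 1.40 (adjusted p = 0.13), which passed with DESeq2 (-3.83, 0.0537). The size of the change rests on single samples at these low counts, with -6.48 at 12 h without sample M2 of that timepoint and no size can be given at 24 h without sample M2, since the other 24 h sample is at 0. The 12 and 24 h calls were lost without either fresh sample, without the M1 sample of that timepoint and without all M1 samples (adjusted p 0.107 to 0.409), as was the call over all timepoints without the M1 samples (0.125).

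Itga9, the tenascin-C receptor subunit, declined less and did not come back. Fresh samples held 665 and 490.1 CPM, 3 h samples 371, 489 and 519 CPM, 12 h samples 264, 222 and 315 CPM, and 96 h samples 183, 226 and 204 CPM. The 3 h samples overlapped the fresh ones, and those from 6 h on did not. The log2 fold change was -0.90 ± 0.22 at 6 h (adjusted p = 0.0155, under 2-fold). It then fell, with log2 fold changes of -1.12 ± 0.22 after 12 h (0.0025), -1.36 ± 0.22 after 18 h (5.09e-04), -1.41 ± 0.25 after 24 h (0.00162) and -1.50 ± 0.22 after 96 h (2.95e-04). Without fresh sample 2 the 12 h value was -0.88, below the 2-fold limit, and without the M1 samples the 24 h call was lost (-1.18, adjusted p = 0.106).

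Itgb1, the β subunit that Itga1, Itga8 and Itga9 need as a partner (chromosome 8, 128685654 to 128733200), did not follow them down. Its level was 1392 and 1162 CPM in fresh cells, 2361, 2450.2 and 2371 CPM at 3 h, and 2378, 1674 and 2417 CPM at 96 h. All 17 cultured samples lay above both fresh ones, the lowest at 1459 CPM. The difference was 0.91 ± 0.19 on the log2 scale at 3 h (adjusted p = 0.00962), 0.63 ± 0.19 at 12 h (0.0348) and 0.76 ± 0.19 at 96 h (0.0177), each under 2-fold and so not called. Over all timepoints its adjusted p was 0.0251. At 24 h the difference was 0.31 ± 0.20 (adjusted p = 0.417). Without fresh sample 2 the 3 h value was 1.08, past the limit.

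Itgb5 and Itgb3, which pair with Itgav, were low in the middle of the time course. Itgb5 held 176 and 159 CPM in fresh cells and 99.2, 132 and 160.3 CPM at 3 h, then 43.9, 21.3 and 5.85 CPM at 6 h. From 12 to 24 h its samples ranged from 11.4 to 65.0 CPM, and at 96 h they held 94.6, 84.5 and 156 CPM. All samples from 6 to 96 h lay below both fresh ones, the highest 96 h sample by a small margin (156 against 159 CPM). Itgb5 fell, with log2 fold changes of -2.83 ± 0.67 after 6 h (adjusted p = 0.0124), -2.13 ± 0.66 after 12 h (0.0421), -2.57 ± 0.67 after 18 h (0.0175) and -2.50 ± 0.77 after 24 h (0.0616). At 96 h the difference was -0.58 ± 0.66 (adjusted p = 0.684). Between 12 and 96 h it was 1.54 ± 0.61 (0.125), which passed with DESeq2 (0.0437). With the M number as a replicate block the 24 h call was lost (adjusted p = 0.114), and the 12 and 24 h calls were also lost without either fresh sample, without the M1 samples, without 12 h sample 1 or 3 and without either 24 h sample (adjusted p 0.105 to 0.307).

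Itgb3 held 68.7 and 92.4 CPM in fresh cells and 159.9, 156 and 93.4 CPM at 3 h. At 12 h the samples held 65.8, 17.5 and 15.9 CPM, and at 18 h 27.1, 14.2 and 22.9 CPM. At 24 h they held 46.1 and 11.8 CPM, and at 96 h 78.0, 54.3 and 89.6 CPM. The 3 h samples all lay above and the 12 to 24 h samples all below the fresh ones, in part by small margins. At 3 h the margin was 93.4 against 92.4 CPM, and at 12 h 65.8 against 68.7 CPM. The log2 difference at 3 h was 0.76 ± 0.64 (adjusted p = 0.623). The share of all genes that separate from the fresh samples in this way was not computed, here or for other members. The log2 fold change was -1.91 ± 0.62 at 18 h (adjusted p = 0.0567) and, from 3 to 12 h, -2.05 ± 0.58 (0.0293), both called lower. The 18 h call was lost without either fresh sample and without 18 h sample 2 or 3 (adjusted p 0.105 to 0.214). With the replicate block it was also called lower at 12 h (-1.78, adjusted p = 0.0519) and 24 h (-2.08, 0.0796) and higher at 96 h than at 12 h (1.41, 0.0992). The 12 h call was also made without 12 h sample 1, the highest of the 3 (-2.27, adjusted p = 0.0177). Without all M1 samples the log2 difference was -2.27 at 12 h, -2.76 at 24 h and 2.10 between 12 and 96 h.

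Itgav, the α subunit of these pairs (chromosome 2, 83724397 to 83806916), was not called at any time. Fresh cells held 61.4 and 50.7 CPM, 3 h cells 85.9, 139 and 98.7 CPM, 6 h cells 80.4, 109 and 138 CPM, and 96 h cells 66.0, 124 and 112 CPM. At 3, 6, 24 and 96 h all samples lay above the fresh ones. The log2 difference was 0.94 ± 0.40 at 3 h (adjusted p = 0.257) and 0.96 ± 0.40 at 6 h (0.162). With the replicate block it was called higher at both, with log2 differences of 1.109 (adjusted p = 0.095) and 1.105 (0.0571).

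**Figure D2:**
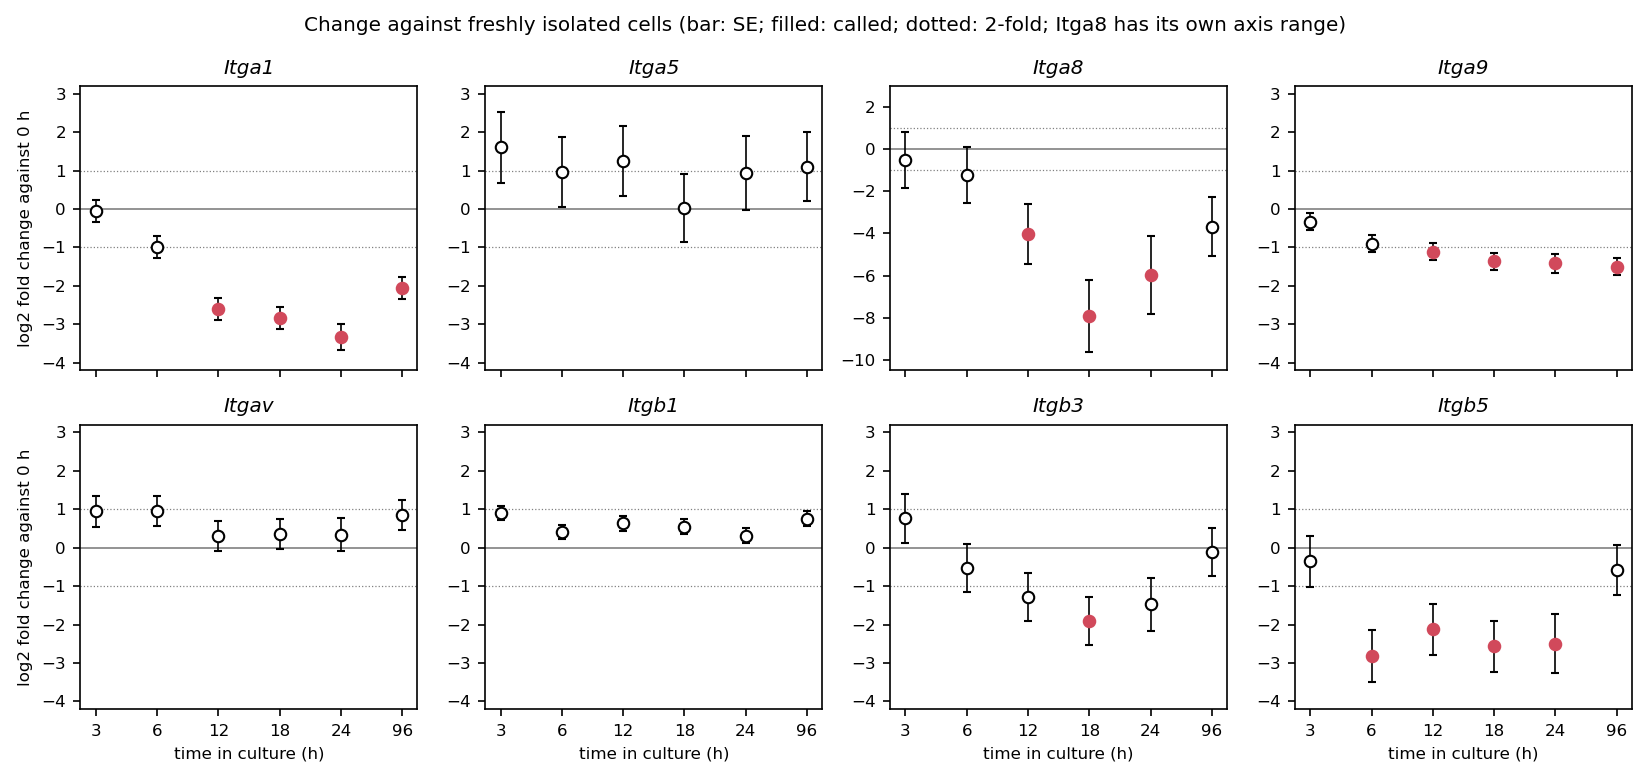
Log2 fold change of 8 integrin subunit genes against fresh cells (vertical axis, Itga8 with a wider range) against hours in culture (horizontal axis, evenly spaced and not to scale). Points are estimates of edgeR's fit of 19 samples, bars are 1 SE, filled points were called and dotted lines mark a 2-fold change. Filled points lie below 0 in every panel that has one, and Itgb1, Itgav and Itga5 have none.

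The remaining 3 members were thinly expressed. Itga5, the fibronectin receptor subunit, ranged from 2.42 to 40.3 CPM over the 19 samples and was not called at any time. Itga3, a laminin receptor subunit, had 0 counts in 16 of 19 libraries and counts of 17 in a 24 h sample and 64 and 90 in 2 of the 96 h samples (18.4 and 15.2 CPM), and was not called (adjusted p = 0.322 at 96 h). Itga6, another laminin receptor subunit, ranged from 0 to 24.0 CPM with 0 counts in 8 libraries. In the M1 libraries it held 6.97, 24.0, 5.10, 1.46, 2.36 and 7.74 CPM from 3 to 96 h, and in the M3 libraries it stayed at or below 0.365 CPM. The M1 libraries also held a higher summed level of 9 sinusoidal endothelial markers than the M2 and M3 libraries of the same timepoint, M3 sharing their isolation date. The sum was 2895, 866, 655, 558, 499.7 and 215 CPM, against 8.76 to 1004 CPM in the cultures of the others and 705 and 1045 CPM in fresh cells. In the M1 libraries between 0 and 3 of the 9 markers were at 0, against up to 7 of 9 in the others at 96 h. The part of endothelial RNA in the Itga6 level was not tested.

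**Figure D3:**
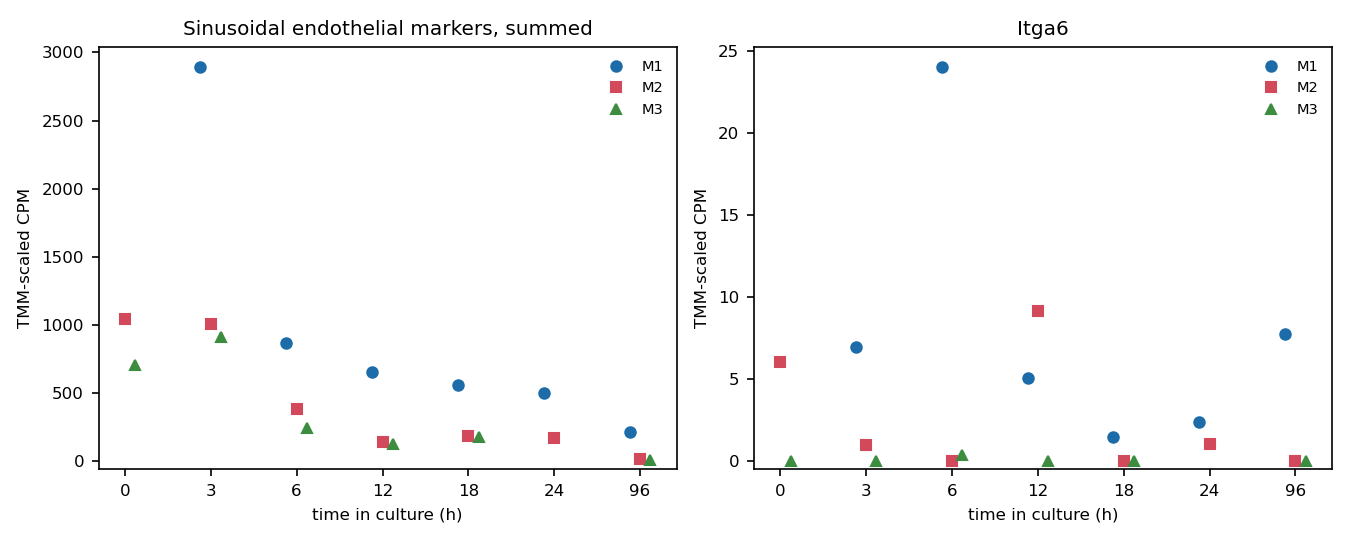
Summed level of 9 sinusoidal endothelial markers (left) and level of Itga6 (right) in TMM-scaled CPM against hours in culture (evenly spaced, not to scale), 1 symbol per sample with shape and colour giving the M number of the labels. M1 is highest for the markers at every timepoint from 3 to 96 h, and for Itga6 at each of these but 12 h, where M2 held 9.16 CPM.

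The mix of α subunits changed with these moves, while the β side stayed with Itgb1. The summed level of the 7 α members was 2450 and 1686 CPM in fresh cells, 470.2 to 704 CPM at 12 h, 389 and 478 CPM at 24 h and 613 to 666 CPM at 96 h. The summed level of the 3 β members was 1637 and 1413 CPM in fresh cells and 1533 to 2738 CPM in culture. As a share of the α sum, Itga1 made up 57.1% ± 3.1 in fresh cells (SD, n = 2), 27.6% ± 4.2 after 24 h (n = 2) and 44.4% ± 4.3 after 96 h (n = 3). Itgav went from 2.76% ± 0.35 to 16.6% ± 2.7 and 15.5% ± 4.2 of the same sum. Itga9 made up 28.1% ± 1.3 in fresh cells, 49.7% ± 5.2 at 24 h and 31.6% ± 2.1 at 96 h. A share of a falling sum can rise without a higher level. At 24 h Itgav was not called (log2 difference 0.34 ± 0.42, adjusted p = 0.754) and Itga9 was called lower. Per kilobase of exon, the order of levels in fresh cells was Itga9 (75.1 CPM per kb), Itga1 (63.9), Itga8 (31.5) and Itgav (5.22), although counts of a 3′ end library do not scale with length. Itgb1 was at 313 CPM per kb in fresh cells, above Itgb5 (47.1) and Itgb3 (13.7), and kept that place at all timepoints.

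**Figure D4:**
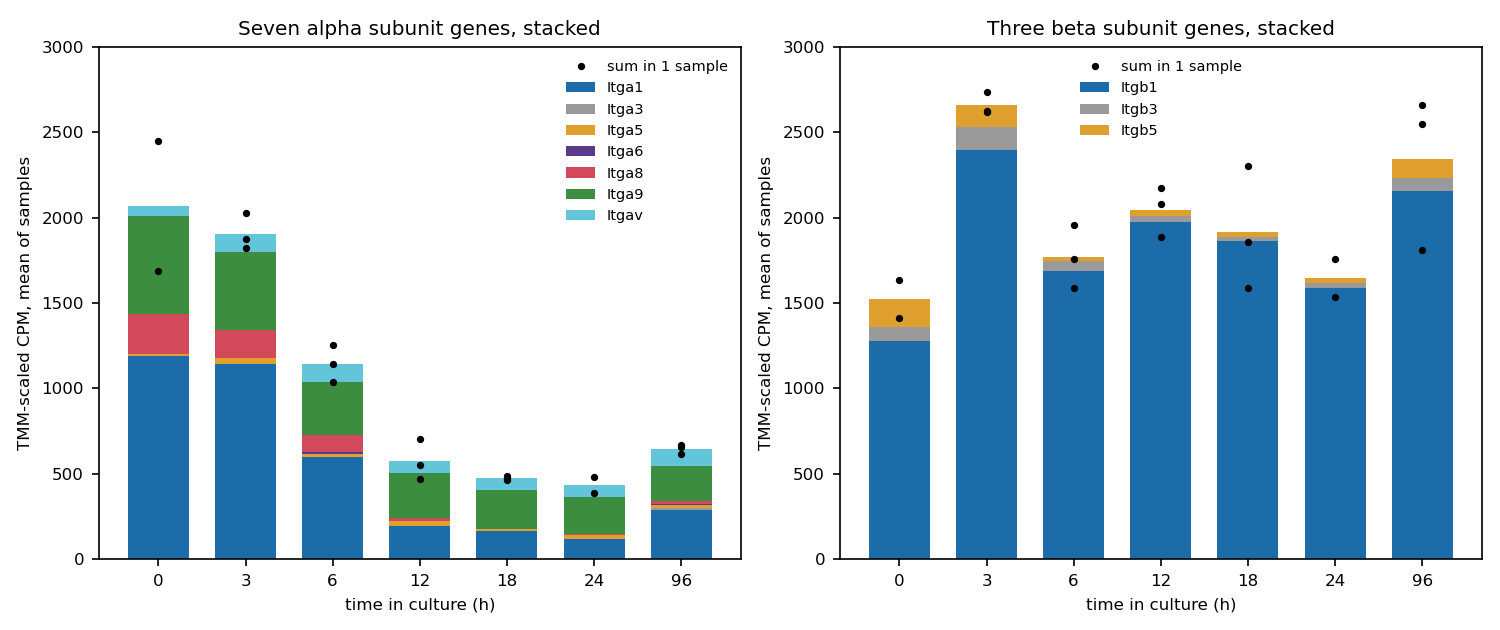
Mean level of the α subunit genes (left) and β subunit genes (right) in TMM-scaled CPM, stacked by gene, against hours in culture (evenly spaced, not to scale). Bars are means of the samples and black dots the sum in each sample. The α stack shrinks from 1686 to 2450 CPM in fresh cells to 389 to 704 CPM at 12 to 24 h, and the β sums in culture all lie above the lower of the 2 fresh samples.

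Other integrin subunit genes were scarce. Of 17 further ones in the annotation, 6 passed the filter and 3 were called over all timepoints (Itga2b, Itga4 and Itgb8), against 26.8% of all genes tested. Itga2b, the platelet fibrinogen receptor α subunit, held 17.6 and 39.7 CPM in fresh cells, 71.0, 70.5 and 25.9 CPM at 3 h and 15.1, 30.4 and 49.7 CPM at 6 h. It held at most 6.27 CPM at 12 h and 0 counts in all 18 and 96 h samples, and was called lower at 18 h (adjusted p = 0.00931) and 96 h (0.0123). Of 5 platelet markers, Ppbp, Gp9 and Treml1 were at 0 in all 19 libraries. The list summed to 54.9 and 58.2 CPM in fresh cells, 5.31 to 50.3 CPM at 3 h and 66.1 to 136 CPM at 18 h. At 24 h it summed to 137 and 112 CPM, and at 96 h to 23.9 to 90.6 CPM. Itgb8, a further partner of Itgav, held 23.8 and 8.03 CPM in fresh cells, 16.8 to 28.9 CPM at 3 h and 0 counts in every sample from 12 h on (called lower at 12 h, adjusted p = 0.0275). Itga4, which binds fibronectin and VCAM-1, was at 0 counts in 11 of 19 libraries and held 16.9, 30.4 and 26.4 CPM at 96 h (adjusted p = 0.669). Itgb2, the β subunit of leukocytes, had 0 counts in all 19.

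Ligand genes moved in both directions. Of 10 tested genes for fibronectin, vitronectin and other integrin ligands outside the collagens and laminins, 4 were called higher and 3 lower at 12 h. Of all genes, 8.6% were called higher and 9.1% lower at that time. Tnc (tenascin-C) had a mean of 34.4 ± 26.6 CPM in fresh cells (SD, n = 2) and 2311 ± 1034 CPM at 12 h (SD, n = 3), a log2 rise of 6.10 (adjusted p = 3.71e-06). Ccn2 (connective tissue growth factor), named here after its values were seen, went from 249 ± 190.4 to 16304 ± 4202 CPM (6.04, adjusted p = 1.74e-06). Vtn (vitronectin), which hepatocytes also make in quantity, went from 147 to 0.17 CPM and was called lower at 12 h (adjusted p = 0.0259), where 7 of 7 hepatocyte markers were called lower too. Spp1 and Npnt, ligands of Itga9 and Itga8, stayed below 10 CPM on average at all timepoints. The median log2 fold change of the 10 was -0.49. Of 7 collagen genes, 5 were called lower and 2 higher at 12 h (9.1% and 8.6% of all genes). Between 12 and 96 h, 5 were called higher (6.96% of all genes). Col1a1 had a mean of 304 ± 202 CPM in fresh cells, 75.1 ± 19.9 CPM at 12 h and 1411 ± 218 CPM at 96 h, and Col1a2 one of 631, 61.7 and 463 CPM. Col4a1 and Col4a2, named after the values were seen, were the 2 that rose (by 1.68 and 1.66 at 12 h). Of 6 laminin genes, 1 (Lamb1) was called lower at 12 h (9.1% of all genes). Of 6 genes of the latent TGF-β complex, 3 were called higher at 12 h (Tgfb2, Tgfb3 and Lrrc32, against 8.6% of all genes) and none lower.

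Genes of the adhesion machinery were called in both directions, and adaptors and kinases against fresh cells more often upward. Of 14 adaptors and kinases, 6 were called higher and 1 lower than in fresh cells at 12 h (8.6% and 9.1% of all genes), and 5 higher and 0 lower at 96 h (5.83% and 5.03%). Between 12 and 96 h it was 1 higher and 2 lower (6.96% and 6.57% of all genes). Actn1, the actin cross-linker α-actinin 1, had a mean of 345 ± 191 CPM in fresh cells and 2950.1 ± 494 CPM at 12 h (log2 rise of 3.10, adjusted p = 8.54e-06). Actn4 (α-actinin 4), of the same list and named after its values were seen, was not called at 12 h (log2 difference 0.27, adjusted p = 0.348). Its mean was 2685 ± 245 CPM in fresh cells and 3233 ± 162 CPM at 12 h. The median of the 14 was 0.97 at 12 h, against 0 over all genes. Lims2 and Tns3 also rose at 12 h, by 5.48 and 1.88. The fresh samples held 9 counts of Lims2 in all, so the size of its rise is uncertain. Of 8 activators and inactivators, 4 were called higher and 1 lower at 12 h, and 1 higher and 1 lower at 18 h and again at 24 h. Between 12 and 96 h, 1 was called higher and 2 lower. Of all genes, 7.64% were called higher and 8.21% lower at 18 h, and 5.65% and 3.86% at 24 h. Among the activators at 12 h, Tln2 (talin 2) fell by 3.03 (adjusted p = 2.33e-06), whereas Fermt2 (kindlin 2) rose by 1.04 (0.0376), as did Tln1 (talin 1), named after its values were seen, by 1.06 (0.0159). Flna (filamin A) and Dab2, which compete with talin for β subunit tails, rose by 1.79 and 1.19. Of 8 integrin-associated membrane proteins, 3 were called higher and 1 lower at 12 h (8.6% and 9.1% of all genes). Those higher included Plaur, the urokinase receptor (by 7.28), and Slc3a2, the CD98 heavy chain that binds β subunits (by 3.61). Cd81 was called lower (by -3.50). For Plaur the size is uncertain, as the fresh samples held 6 counts of it in all. Between 12 and 96 h 3 of these 8 were called higher and 3 lower (6.96% and 6.57% of all genes).

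**Figure D5:**
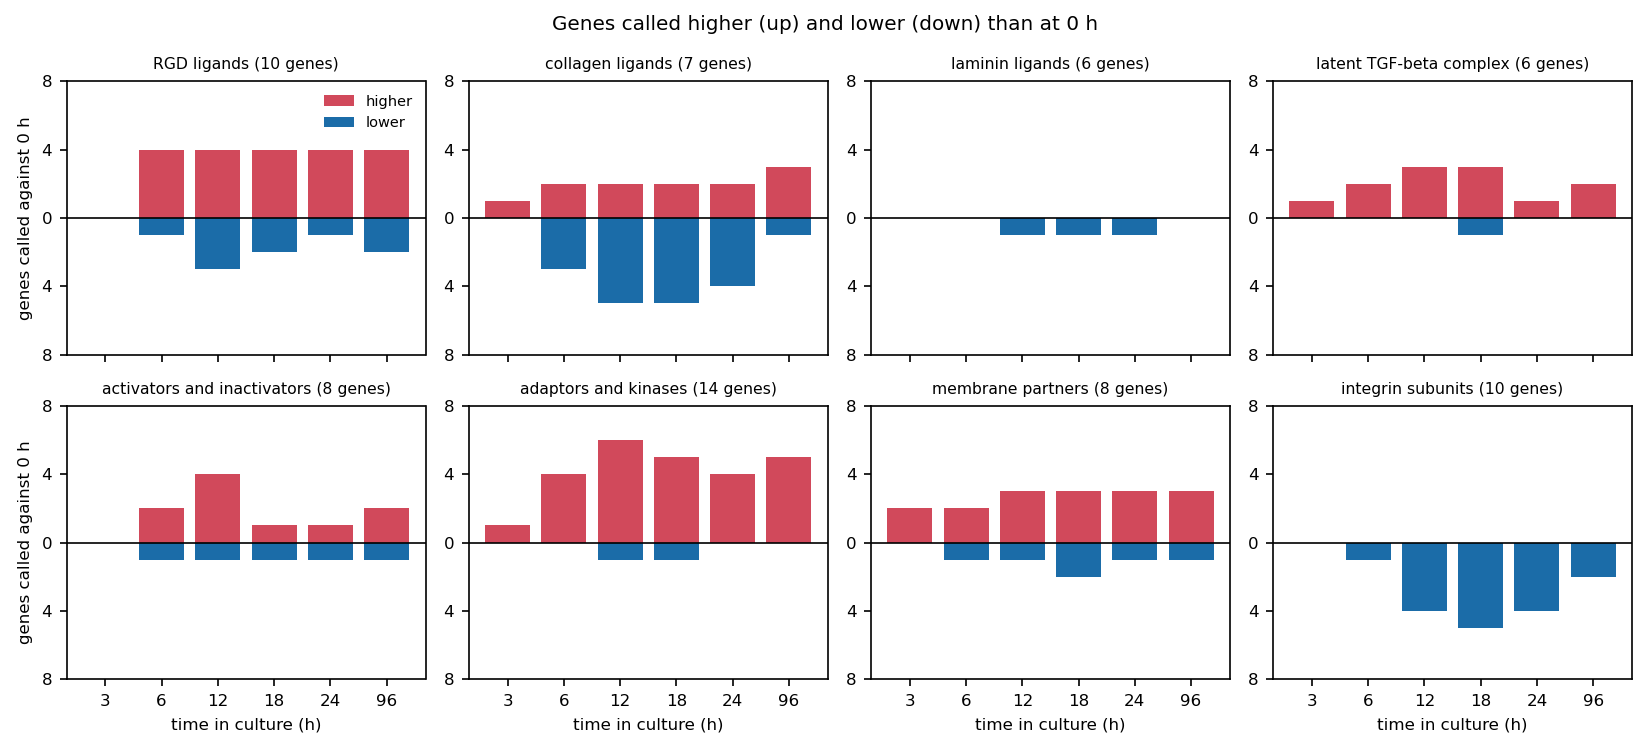
Number of genes called higher (upward bars) and lower (downward bars) than in fresh cells for 7 lists of integrin partners and the 10 integrin subunits, against hours in culture (evenly spaced, not to scale). The subunits have downward bars from 6 to 96 h and no upward bar, and the adaptors and kinases reach 6 of 14 genes upward at 12 h.

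Between timepoints in culture, 3 of 10 members were called lower at 12 h than at 3 h (Itga1, Itgb3 and Itgb5) and 0 higher, against 7.9% of all genes lower and 6.46% higher. Itga8 was not called in this comparison (-3.49 ± 1.33, adjusted p = 0.106), but was with the replicate block (-4.03, 0.0926), the isolation date as a covariate (0.0808), DESeq2 (0.0319), no filter (0.0773), thinning (0.0263) and in 5 of the 19 fits that left out 1 sample. The Itgb3 call was lost without 12 h sample 2 or 3 (adjusted p 0.121 and 0.122), and the Itgb5 call in 8 of 28 alternatives. Between 12 and 96 h, 0 of 10 were called (6.96% of all genes higher, 6.57% lower). In that comparison 2 members had an unadjusted p below 0.05, as had 3758 of the 15138 genes tested, and DESeq2 called 1 member. The genes whose log2 CPM followed a member most closely over the 19 samples, among 6725 candidates averaging 20 CPM or more, were Abcc9 (r = 0.951), Igfbp7 and Lum for Itga1, and Gpc6 (0.916), Lrp1 and Gpx1 for Itga8. For Itga9 they were Tgfbr3 (0.918), Gm10925 and mt-Atp6, for Itgb3 Psap (0.905), Ifitm2 and Grn, and for Itgb5 Pdia3 (0.876), Tmem86a and Dpysl2. Among the members, Itga1 went with Itga8 (r = 0.826) and Itga9 (0.816), and with Itgb1 at r = -0.009. These are descriptions over samples that share timepoints and isolation dates.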

How the data were processed

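RNASeq libraries of 19 HSC samples were made with a 3′ end kit (QuantSeq FWD) and single-end sequencing. The authors deposited whole-number counts per Ensembl gene without normalization. According to their methods and processing notes, reads were mapped to GRCm38.p6 (mm10) with STAR and StringTie was used. The counting tool and annotation release are not given in the sources used here. Without a stated strand setting, reads of genes with overlapping exons cannot be separated: Itga1 shares 685 bases with Gm49395 (1025 counts in all, against 41176 for Itga1), Itga8 372 with E030013I19Rik (0 counts) and Itgav 634 with Gm13684 (22 counts).

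Symbols came from GENCODE M21. Groups, M numbers and isolation dates came from the sample labels. After filterByExpr and TMM scaling, edgeR 4.0.16 (R 4.3.3) gave quasi-likelihood tests with Benjamini-Hochberg adjustment from one fit of 19 samples with timepoint as the only factor. The study's methods name DESeq2, which was an alternative here (1.42.0). The study's methods describe the samples of a timepoint as independent repeats, and the labels do not say whether an M number is 1 animal. Samples of one M number share an isolation date by the labels, which M1 and M3 also share with each other. Residuals of same-numbered samples correlated at 0.0143 on average (51 pairs), and those of samples with unlike numbers at -0.00704 (103 pairs). Differences within an M number are on the log2(CPM + 1) scale. Plots used Python 3.11.15 and matplotlib 3.10.9.

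The 10 members and the gene lists were chosen with earlier results of these data known. All members are described. Of each other list, counts are given, with up to 4 genes called over all timepoints (the widest fitted range) and any integrin gene of at least 10 CPM on average. The alternatives were DESeq2, library size scaling, no filter, the replicate block, isolation date, a limit of adjusted p below 0.05 without a fold limit, fits of the 2 timepoints alone, thinning to 2073171 counts, leaving out each sample and, chosen after seeing the data, leaving out the M1 samples. The steps were tested on simulated data.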

Additional observations from a re-analysis of the deposited data

How the results depend on the processing

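Of 25 log2 fold changes of members recomputed under 28 alternatives each, 700 values in all, 655 kept direction and side of the limits, 41 fell short of the limits, 4 passed them and 0 reversed. These 25 are the called values and all values of Itgb1 against 0 h. Other values that were not called, such as Itga1 at 6 h, are not counted, although some passed the limits under an alternative. Itga1 from 12 h on, Itga8 at 18 h, Itgb5 at 6 and 18 h and Itga9 at 18 and 96 h were called under every alternative run. The count of members called moved by more than 1.5 times as follows. At 3 h it was 0, and 1 with the replicate block and at an adjusted p below 0.05 with no fold limit. At 6 h it was 1, against 3 with DESeq2 and at that limit, and 2 without the filter, with the replicate block and after thinning. At 12 h it was 4, and 2 in the fit of those timepoints alone. At 24 h it was 4, and 2 at the stricter limit and without the M1 samples. Between 12 and 96 h it was 0, and 1 with DESeq2, with the replicate block, after thinning and without the M1 samples. Leaving out 1 sample at a time, the counts ranged from 0 to 1 at 3 h, 1 to 3 at 6 h, 1 to 4 at 12 h (1 without fresh sample 2), 2 to 4 at 24 h and 0 to 1 between 12 and 96 h. The cause of these moves was not tested. The fit that left 1 fresh or 1 24 h sample assumes that it varies like the other groups. Scaling by library size moved the median of all genes by 0.23 at 18 h and 0.27 at 24 h (log2), and with it upward calls made up 71.5% of all calls at 24 h in place of 59.4%. At 18 h it made up 58.2% in place of 48.2%. With DESeq2 this share was 63.4% in place of 75.1% at 3 h, 47.7% in place of 61.6% at 6 h and 47.7% at 24 h. None of the 25 values changed sign under either scaling.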
